A study of Homo sapiens with 4 samples.

Results

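The endoplasmic reticulum (ER) folds and modifies secreted and membrane proteins, and 41 genes that carry out or control this work were followed in MDA-MB-361 cells expressing shRNAs against DCD. The genes were 14 chaperones and folding factors, 12 genes of the translocon (SEC, SSR and SPCS), 11 genes of ER-associated degradation, and 4 sensors and transducers of the unfolded protein response. They were chosen by their known function, but with earlier results of these data known. The study had already reported HSPA5 (as GRP78) and HSPA13 (as STCH) as decreased on these arrays. Each gene was represented by the brightest of the probe sets annotated to it alone. Such a probe set was tested for 39 of the 41 genes, out of 12728 genes in all. SEC61G, the gamma subunit of the translocon, and SYVN1, an E3 ubiquitin ligase, had no probe set annotated to them alone and do not enter the counts.

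MDA-MB-361 is an established human breast cancer cell line. Total RNA was hybridized to 4 Affymetrix U133 Plus 2.0 arrays, 1 for each of 3 lines with a different shRNA against DCD in the lentiviral vector pLKO, here called IBC-I (clone 1 of the labels), IBC-II (clone 2) and IBC-III (clone 3), matched by number, and 1 for the line with the pLKO vector. All 4 lines therefore carry the vector, each shRNA line is labelled as 1 clone and has 1 array, and the pLKO line is also a single array. DCD encodes dermcidin, a secreted peptide of sweat glands that some breast carcinomas express. The study asked which genes differ between each shRNA line and pLKO. Values of the shRNA lines are given in the order IBC-I, IBC-II, IBC-III.

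The unfolded protein response matches the folding capacity of the ER to the load of new proteins. The sensors IRE1 (ERN1), PERK (EIF2AK3) and ATF6 sit in the ER membrane and are held by the chaperone BiP (HSPA5) until unfolded proteins accumulate. IRE1 then splices the mRNA of XBP1, and the factors made from XBP1 and ATF6 switch on chaperone, translocon and degradation genes. Breast carcinoma cells of the luminal type are epithelial cells, and the extent of their ER was not measured here.

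ATF6 and XBP1 are known to act through short promoter elements, so the RefSeq promoters of the genes (GRCh38.p14, 250 bases before to 50 bases after each start) were searched on both strands. The ER stress element ERSE was searched as CCAAT, any 9 bases and CCACG, and ERSE-II as ATTGG, any 1 base and CCACG. The UPR element was searched as TGACGTGG and the C/EBP-ATF element as TGATGNAAT. Promoters were held for 37 of the 41 genes. The promoter of HSPA5, the BiP gene, is shown because this gene was among the lowest of the 41 in all 3 shRNA lines. The promoter of HERPUD1 is shown as the ERSE-II holder of the degradation genes, and that of DNAJB9, the other gene at least 3-fold lower in every line, as one where none of the 4 elements was found. Each is the 250 bases before the start, 5′ to 3′ on the strand of the gene, with the fixed letters of the element in capitals. The first lies at chr9:125241344-125241593 on the minus strand, the second at chr16:56931892-56932141 on the plus strand and the third at chr7:108569624-108569873 on the plus strand.
HSPA5: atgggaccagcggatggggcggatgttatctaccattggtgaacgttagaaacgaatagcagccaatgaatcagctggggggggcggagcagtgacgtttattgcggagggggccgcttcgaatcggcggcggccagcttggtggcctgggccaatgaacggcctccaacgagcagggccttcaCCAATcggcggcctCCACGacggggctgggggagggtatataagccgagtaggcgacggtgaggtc
HERPUD1: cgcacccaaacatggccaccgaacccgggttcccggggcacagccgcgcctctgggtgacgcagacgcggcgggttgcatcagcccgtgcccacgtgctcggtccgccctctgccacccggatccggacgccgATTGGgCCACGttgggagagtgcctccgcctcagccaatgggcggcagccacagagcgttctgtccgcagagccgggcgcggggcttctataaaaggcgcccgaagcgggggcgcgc
DNAJB9: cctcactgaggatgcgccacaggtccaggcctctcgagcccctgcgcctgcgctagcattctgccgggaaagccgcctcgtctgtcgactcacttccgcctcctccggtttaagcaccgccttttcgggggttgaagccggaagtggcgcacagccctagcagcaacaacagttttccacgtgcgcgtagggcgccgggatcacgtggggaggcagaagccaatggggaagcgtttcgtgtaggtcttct

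ERSE was found in 6 of the 37 genes, against 0.0916% of the 27305 genes with a promoter. The matches are printed in the direction of the motif, with its fixed letters in capitals, to show how the 9 bases between the fixed ends vary.
HSPA5: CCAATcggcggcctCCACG
XBP1: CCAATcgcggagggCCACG
CALR: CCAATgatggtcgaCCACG
CANX: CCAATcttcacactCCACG
CRELD2: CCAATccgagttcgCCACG
HSP90B1, farther from the start: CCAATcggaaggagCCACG
HSP90B1, nearer the start: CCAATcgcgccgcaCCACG

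The HSPA5 match lies 66 to 48 bases before the start at chr9:125241391-125241409, the XBP1 match 52 to 34 bases before it at chr22:28800603-28800621. Both are on the strand of the gene. HSP90B1 holds a match on each strand, at chr12:103930216-103930234 and chr12:103930321-103930339. The ERSE-II letters ATTGGgCCACG lie in HERPUD1 at chr16:56932025-56932035, ATTGGtCCACG lies in SDF2L1 at chr22:21642114-21642124, and ATTGGaCCACG occurs at 2 places in HYOU1. ERSE-II was found in these 3 genes, against 0.0696% of all genes. One or the other element was held by 9 of the 37 genes, 7 of them chaperones, 1 a degradation gene and 1 the transcription factor gene XBP1, against 0.161% of all genes. None of the 11 translocon genes with a promoter held either, which at 0.161% of all genes does not set them apart from other genes. The UPR element was found in 5 genes (DNAJC10, HYOU1, SEC62, SSR3 and SSR4), against 0.927% of all genes, and in HYOU1 it overlaps an ERSE-II match. The C/EBP-ATF element was found in 0 of the 37, against 1.22% of all genes, and at that share this 0 does not set the 37 apart. A match describes the letters of the window and does not show that a factor binds there. The genes were chosen for known roles in ER folding and its control, and these elements are known from the same response. The higher shares of ERSE, ERSE-II and the UPR element were therefore not independent of the choice of genes.

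RNA quality and brightness differed between the arrays. The median deposited intensity was between 13.4 (IBC-III) and 24.7 (IBC-II). The control probe sets at the 3′ end of ACTB, divided by those at its 5′ end, gave a ratio of 5.29 in pLKO and 9.67, 2.58 and 42.6 in the shRNA lines, where a high value marks degraded RNA or incomplete labelling. IBC-III stood apart, with a correlation of 0.722 with pLKO over the probe sets tested, against 0.937 for IBC-II and 0.889 for IBC-I. The probe set of DCD was at 2 in pLKO and 7, 6 and 2.7 in the shRNA lines, all under the floor of 16 set for low intensities, so these arrays do not check the knockdown. The study reported reduced DCD mRNA and protein in its shRNA cells by RT-PCR, immunocytochemistry and immunoblot. All 8 luminal markers sought, among them KRT8, KRT18, EPCAM and CDH1, were above the floor on all 4 arrays. Of the leukocyte markers, CD14 was under it on all 4, PTPRC above it on 1 and CD3E, whose highest deposited intensity was 25.2, above it on 3. Of the endothelial and fibroblast markers, CDH5 was under it on all 4, VWF, COL3A1 and LUM were above it on 1 and DCN on 3. CD68 had no probe set annotated to it alone, and PECAM1, COL1A1 and COL1A2 were above the floor on all 4 arrays.

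All values below are intensities after quantile normalization, which gives the arrays the same distribution, and differences are on the log2 scale of these intensities. Of the 39 genes tested, 27 had a lower level in all 3 shRNA lines than in pLKO, a share of 69.2% against 21.3% of all 12728 genes. Another 2, SEC62 and DERL3, were higher in all 3, against 18.8% of all genes, and 10 lay on both sides of pLKO. None was at least 2-fold higher in all 3, against 0.550% of all genes. Among the 1387 genes at least as bright as the median of the 39, the share lower in all 3 was 20.0%. The 3 comparisons share the 1 pLKO array, so a high value on that array enters all of them. In these bulk RNA samples, less RNA per cell and fewer cells with the RNA cannot be told apart.

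The difference was at least 2-fold in all 3 lines for 4 genes, HSPA5, DNAJB9, HSPA13 and MANF, against 0.817% of all genes and 0.649% of those 1387 bright genes. All 4 are chaperones or folding factors. The study had named HSPA5 and HSPA13 as decreased from these same arrays, so the counts are not independent of earlier results. It was at least 3-fold, the size the study required, for HSPA5 and DNAJB9, against 0.181% of all genes. With the values as deposited, or centred on the array medians, DNAJB9 alone passed the 3-fold rule and SEC62 alone was higher in all 3 lines. Taken 1 line at a time, 10 of the 39 (25.6%) were at least 2-fold lower in IBC-I against 9.09% of all genes, 7 (17.9%) in IBC-II against 4.34%, and 17 (43.6%) in IBC-III against 22.4%. IBC-II, whose ACTB ratio was below that of pLKO, had 32 of 39 genes lower, as did IBC-III, and IBC-I had 34, against 49.2%, 53.8% and 48.5% of all genes. By their ACTB ratios the arrays run from IBC-II through pLKO and IBC-I to IBC-III, and levels falling in that order were seen in 3 of the 39 genes, against 9.54% of all genes. That order needs IBC-II above pLKO, so the 32 genes lower in IBC-II could not show it. The low count follows from those 32, and the part of RNA quality was not tested by it.

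No gene passed limma. The smallest adjusted p of the 39 was 0.9998 (Benjamini-Hochberg over 27307 probe sets), which was also the smallest over all probe sets, of which 0 passed. At an unadjusted p under 0.05, 3 of the 39 genes were lower and 0 higher, while 63 of all 12728 genes were lower (0.495%) and 28 higher (0.220%). Without IBC-I the count of the 39 was 0. By limma the unadjusted p was 0.0199 for DNAJB9, 0.0244 for HSPA5 and 0.0478 for HSPA13. The fit has 2 residual degrees of freedom and takes the spread of pLKO, which has 1 array, to be that of the 3 shRNA arrays, which carry different hairpins. The differences below are therefore described by their size, their SD over the 3 lines and their place among all genes.

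**Figure D1:**
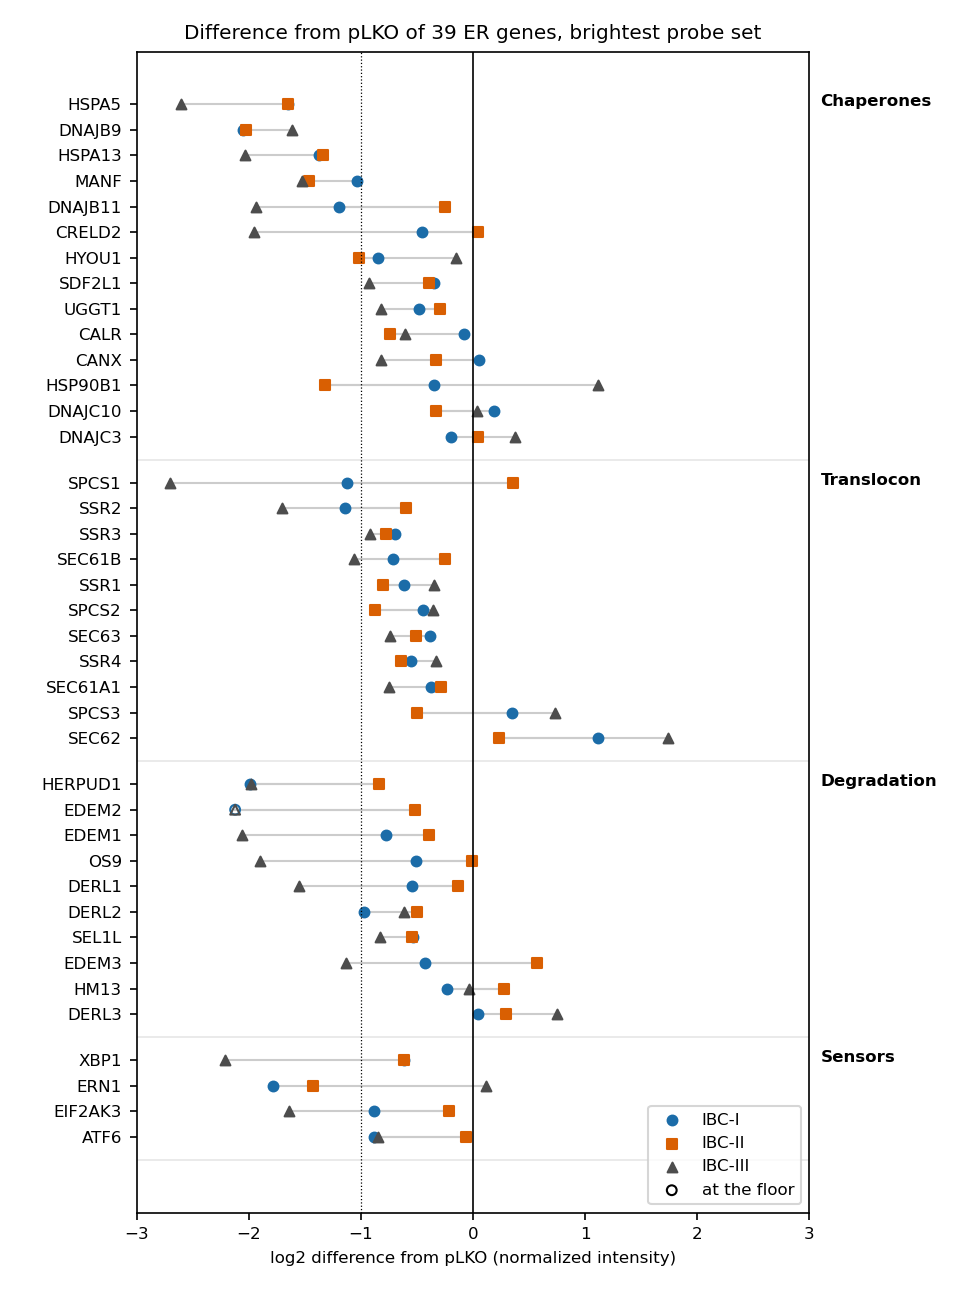
Log2 difference from pLKO of the 39 genes (x axis), 1 row a gene, grouped by role and sorted by the mean, with 1 symbol for each shRNA line. Open symbols are values at the floor, the solid line is no difference and the dotted line is 2-fold lower. HSPA5, DNAJB9, HSPA13 and MANF have all 3 symbols left of the dotted line, and SEC62 and DERL3 have all 3 to the right of 0.

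HSPA5 encodes BiP, the HSP70 chaperone of the ER lumen and the protein that holds the sensors inactive. Its normalized intensity was 4105 in pLKO and 1309, 1312 and 677 in the shRNA lines. It was thus 3.14-fold, 3.13-fold and 6.06-fold lower than pLKO, a mean log2 difference of -1.96 ± 0.55 (SD, n = 3 lines). Counted from the lowest of 12728 genes it was number 240, 105 and 298 in the 3 lines. The part of RNA quality in this difference was not tested. Its other probe set, a dimmer one, differed from pLKO by -0.41, -1.05 and 0.76 on the log2 scale, so the difference in IBC-III depends on the probe set.

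DNAJB9 encodes ERdj4, a J-domain co-chaperone of BiP that is a known target of XBP1. It was at 544 in pLKO and 132, 134 and 178 in the shRNA lines, or 4.14-fold, 4.07-fold and 3.05-fold lower, a mean log2 difference of -1.89 ± 0.25 (SD, n = 3). Each of its 3 probe sets was lower in every line, the other pair with log2 differences between -2.42 and -1.03, some at the floor. It was number 54 from the lowest of all genes in IBC-II and number 76 in IBC-I. In IBC-III, where differences of all genes were widest, it was number 1349.

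HSPA13, an HSP70-like ATPase of the microsomes, was at 133.3 in pLKO and 51.4, 52.9 and 32.6 in the shRNA lines. These are 2.59-fold, 2.52-fold and 4.08-fold lower levels, and its second probe set was lower in all 3 lines as well. MANF, a secreted ER stress-induced factor that binds BiP, was at 376 in pLKO and 184, 137 and 131 in the shRNA lines. It was 2.04-fold, 2.75-fold and 2.88-fold lower, a mean log2 difference of -1.34 ± 0.27 (SD, n = 3). Closest to the 3-fold limit stood DNAJB9 (3.05-fold, IBC-III) and HSPA5 (3.13-fold, IBC-II), and closest to the 2-fold limit MANF (2.04-fold, IBC-I).

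**Figure D2:**
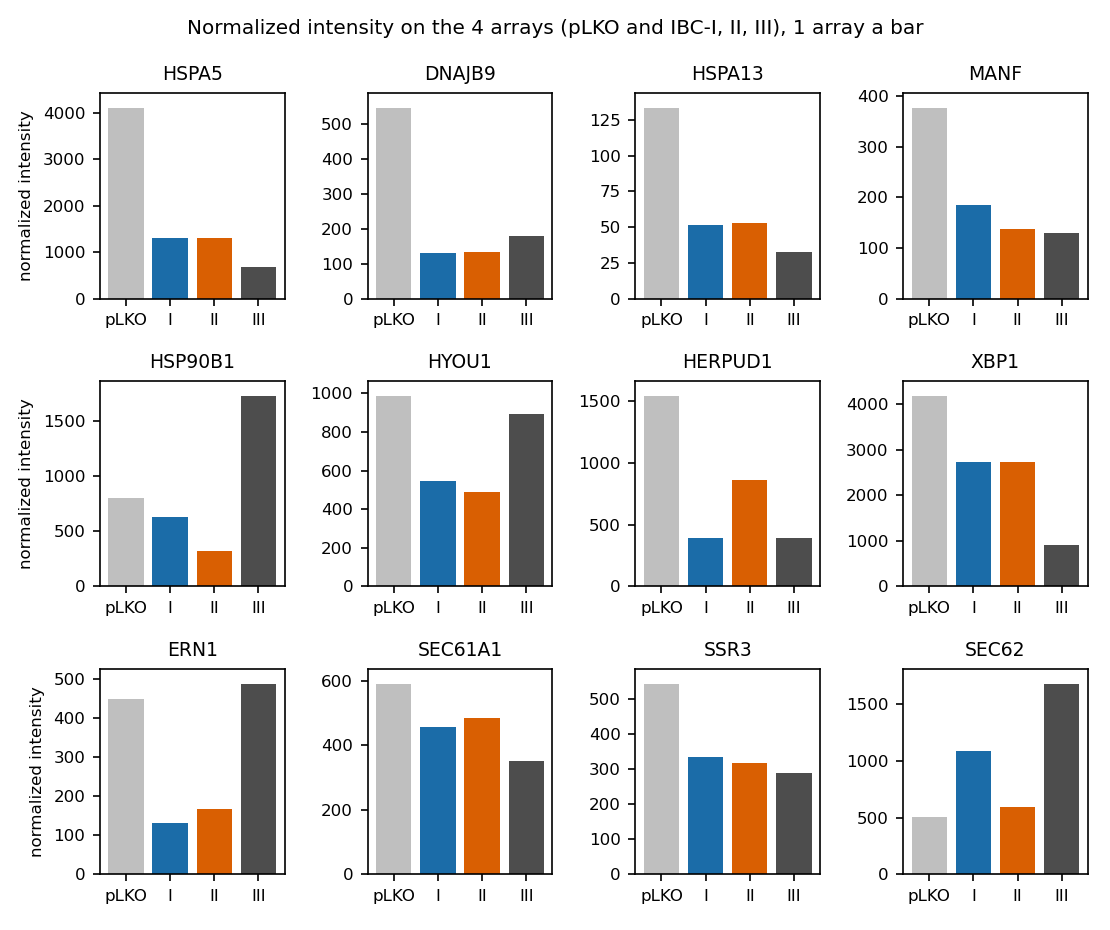
Normalized intensity (y axis, linear from 0) of 12 of the genes on the pLKO, IBC-I, IBC-II and IBC-III arrays, 1 array a bar and therefore no error bar. The pLKO bar is the tallest for HSPA5, DNAJB9, HSPA13, MANF, HYOU1, HERPUD1, XBP1, SEC61A1 and SSR3, while IBC-III is the tallest for HSP90B1 and SEC62 and slightly above pLKO for ERN1.

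The other chaperones differed less. HYOU1, which exchanges the nucleotide of BiP, was at 986 in pLKO and 547, 489 and 890 in the shRNA lines, so it was 1.80-fold and 2.02-fold lower in the first 2 lines and 1.11-fold lower in IBC-III. DNAJB11, another J-domain partner of BiP, was 2.29-fold, 1.19-fold and 3.82-fold lower. The lectin chaperone CALR was 1.05-fold, 1.67-fold and 1.52-fold lower. Its dimmest probe set was 1.81-fold, 2.12-fold and 4.99-fold lower, and its remaining probe set lay on both sides of pLKO. SDF2L1, which works with the ERdj3 protein of DNAJB11, was 1.27-fold to 1.90-fold lower, and UGGT1, which re-glucosylates misfolded glycoproteins, was 1.23-fold to 1.77-fold lower. Altogether 9 of the 14 chaperones were lower in all 3 lines and 0 were higher in all 3.

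The other 5 chaperones lay on both sides of pLKO. CANX, the membrane-bound partner of calreticulin, was at 1769 in pLKO and 1836, 1409 and 999 in the shRNA lines. Its second brightest probe set was 1.69-fold, 1.32-fold and 6.49-fold lower, and its other tested probe sets lay on both sides of pLKO. HSP90B1, which encodes GRP94, the HSP90 of the ER, was at 796 in pLKO and 625, 320 and 1723 in the shRNA lines, or 1.27-fold and 2.49-fold lower and 2.16-fold higher. IBC-III alone was above pLKO for this probe set. A pair of brighter HSP90B1 probe sets, which the annotation shares with the microRNA gene MIR3652, differed by -0.55, -1.29 and -0.02 and by -0.69, -1.51 and -1.50 on the log2 scale. CRELD2 was lower in IBC-I and IBC-III, by 1.37-fold and 3.88-fold, and 1.03-fold higher in IBC-II. The co-chaperone genes DNAJC3 and DNAJC10 were within 1.30-fold of pLKO in every line by their brightest probe set. Of their other tested probe sets 2 for each gene were lower in all 3 lines, 1 of DNAJC3 by 2.14-fold, 1.70-fold and 1.91-fold and 1 of DNAJC10 by 1.47-fold, 2.05-fold and 2.07-fold.

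Of the 11 translocon genes tested, 8 were lower in all 3 lines, 1 was higher and 2 lay on both sides. None was at least 2-fold lower in all 3. SEC61A1, the channel of the translocon, was at 591 in pLKO and 455.7, 483.5 and 351.1 in the shRNA lines, 1.30-fold, 1.22-fold and 1.68-fold lower. SEC61B, the beta subunit, was at 765 in pLKO and 468, 644 and 366 in the shRNA lines. By their brightest probe sets, both subunits were below pLKO on all 3 shRNA arrays. The IBC-II difference of each was under 1.25-fold (1.22-fold and 1.19-fold). Another tested probe set of SEC61A1, a dimmer one at the floor in IBC-I, lay on both sides of pLKO. Its log2 differences were -2.44, 0.14 and -1.51.

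The translocon-associated protein complex, which SSR1 to SSR4 encode and which assists the entry of some signal peptides, was lower in all 3 lines for all 4 genes. SSR3 was at 543 in pLKO and 335, 317 and 288 in the shRNA lines, a mean log2 difference of -0.80 ± 0.11 (SD, n = 3). SSR2 was 2.21-fold, 1.52-fold and 3.26-fold lower. SSR1 was 1.28-fold to 1.74-fold lower and SSR4 1.26-fold to 1.56-fold lower. The direction was shared by all probe sets of these genes, 6 of 6 for SSR1 and 4 of 4 for SSR3, with 1 each for SSR2 and SSR4. By the brightest probe set of SSR3, the 3 lines differed from each other by less than each differed from pLKO. Its second brightest probe set did not show this, with log2 differences of -1.65, -1.04 and -0.37.

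SEC62, a subunit that brings small precursors to the channel and also serves as an ER-phagy receptor, was higher in all 3 lines. Its intensity was 502 in pLKO and 1091, 591 and 1680 in the shRNA lines, or 2.17-fold, 1.18-fold and 3.35-fold higher. Of its 5 probe sets 2 were higher in all 3 lines and the others lay on both sides of pLKO. SEC63, its J-domain partner, was 1.30-fold, 1.42-fold and 1.67-fold lower. The signal peptidase subunits did not share a direction by their brightest probe sets. SPCS2 was lower in all 3 lines, SPCS1 was 2.18-fold and 6.49-fold lower in IBC-I and IBC-III and 1.28-fold higher in IBC-II, and SPCS3 was lower in IBC-II only. The other 2 probe sets of SPCS3 were lower in all 3 lines, with log2 differences of -1.19, -0.81 and -0.18 and of -0.74, -0.58 and -0.62.

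Among the 10 degradation genes tested, 7 were lower in all 3 lines, 1 was higher and 2 lay on both sides. HERPUD1, which organizes the ubiquitin ligase complex of the ER membrane, had the largest mean difference among those above the floor on all 4 arrays. It was at 1539 in pLKO and 389, 861 and 390 in the shRNA lines, 3.96-fold, 1.79-fold and 3.95-fold lower, with a mean log2 difference of -1.60 ± 0.66 (SD, n = 3; limma unadjusted p = 0.0627). The IBC-II level lay between those of pLKO and the other 2 lines. EDEM2, a mannosidase-like factor, was at the floor in IBC-I and IBC-III and at 48.6 in IBC-II and 69.6 in pLKO, so it was at least 4.35-fold lower in the first 2 and 1.43-fold lower in IBC-II. EDEM1 was 1.71-fold, 1.31-fold and 4.15-fold lower.

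SEL1L, the adaptor of the SYVN1 ligase, was 1.45-fold, 1.46-fold and 1.78-fold lower, while its other 3 probe sets lay on both sides of pLKO. The lectin gene OS9 was 1.42-fold, 1.01-fold and 3.74-fold lower, so that its IBC-II level was nearly that of pLKO. DERL1 and DERL2, which encode channel proteins for retrotranslocation, were lower in all 3 lines, by 1.10-fold to 2.92-fold and 1.41-fold to 1.96-fold. DERL3, their relative, was at 38.4 in pLKO and 39.7, 47.2 and 64.6 in the shRNA lines, but its second tested probe set was lower in all 3 lines, with log2 differences of -0.83, -0.21 and -0.84. EDEM3 was at 110 in pLKO and 81.3, 163 and 49.96 in the shRNA lines, and its other probe sets were 1 lower and 1 higher in all 3 lines. HM13, the signal peptide peptidase, was within 1.21-fold of pLKO in every line, while 2 of the 4 tested HM13 probe sets lay under pLKO in all 3. The only probe set of SYVN1, which the annotation shares with MIR6751, differed by -0.04, -0.82 and -0.80 on the log2 scale.

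Of the sensors, ERN1 was at 448 in pLKO and 130, 166 and 486 in the shRNA lines. It was 3.45-fold and 2.69-fold lower in the first 2 lines and 1.09-fold higher in IBC-III, and it was number 166 and 180 from the lowest of all genes in IBC-I and IBC-II. Its second probe set was lower in all 3 lines, with log2 differences of -2.88, -1.48 and -1.64, and the third, the dimmest, was higher in IBC-I and IBC-III. The level of ERN1 in IBC-III thus depends on the probe set, while the brighter pair shared a direction in IBC-I and IBC-II.

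EIF2AK3, the gene of PERK, was at 307 in pLKO and 167, 265 and 98.8 in the shRNA lines. ATF6 was at 114 in pLKO and 61.7, 109 and 63.1 in the shRNA lines. For both, IBC-II was close to pLKO, 1.16-fold and 1.04-fold lower. The other 3 tested probe sets of ATF6 all lay on both sides of pLKO, and its mean log2 difference was -0.60 by the brightest and -0.097 by the mean of all its probe sets. XBP1, the factor gene downstream of IRE1, was at 4173 in pLKO and 2726, 2730 and 899 in the shRNA lines, or 1.53-fold, 1.53-fold and 4.64-fold lower. Its second probe set, which is much dimmer and at the floor in IBC-II, differed by 0.88, -0.66 and 0.64 on the log2 scale. The probe sets do not tell spliced from unspliced XBP1 mRNA. By the brightest probe set, 3 of these 4 genes were lower in all 3 lines.

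**Figure D3:**
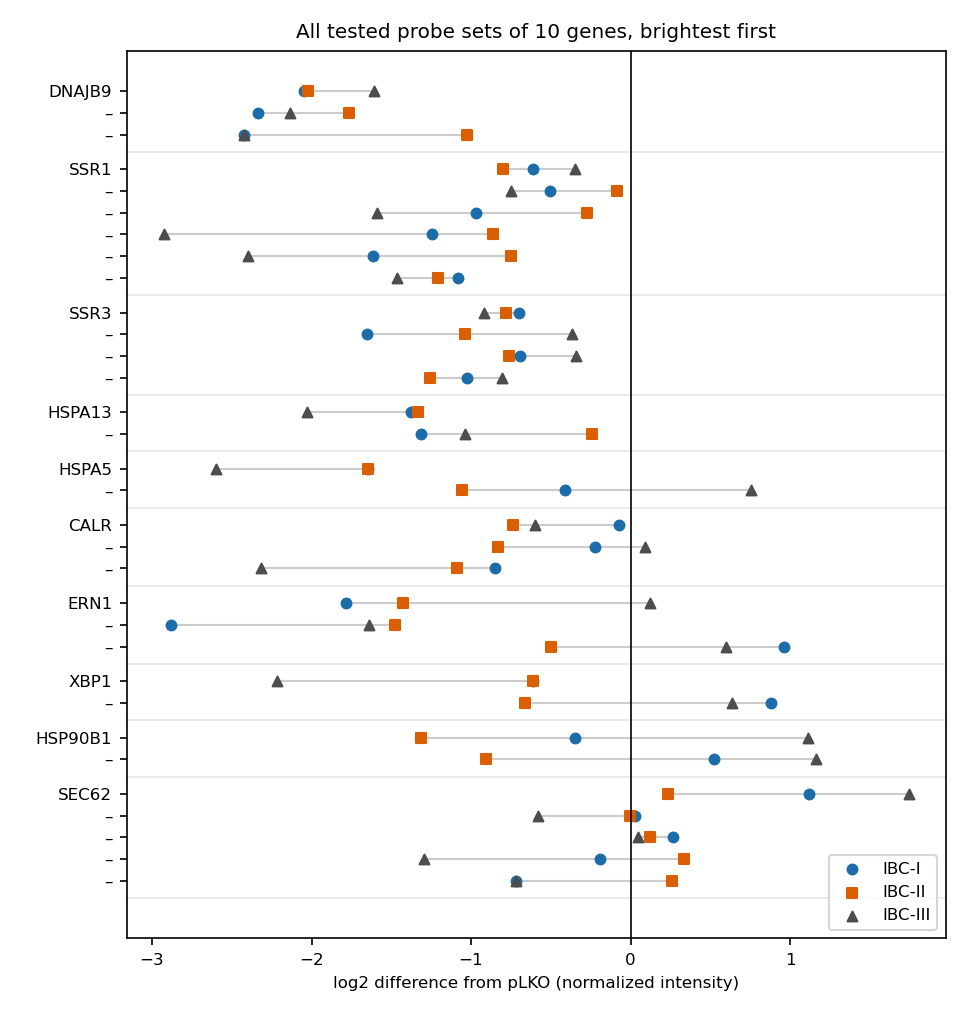
Log2 difference from pLKO (x axis) of every tested probe set annotated to 1 gene alone, for 10 genes, the brightest in the named row and the dimmer ones under it. The 3 rows of DNAJB9, the 6 of SSR1 and the 4 of SSR3 have all symbols left of 0, whereas the rows of HSPA5, CALR, ERN1, XBP1, HSP90B1 and SEC62 differ in direction for at least 1 line.

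The agreement of probe sets was counted over all 39 genes. They had 96 tested probe sets, of which 57 (59.4%) were lower in all 3 lines and 4 higher, against 20.0% lower of all 27307 probe sets. By role, 19 of 34 chaperone probe sets, 21 of 30 translocon probe sets, 13 of 22 degradation probe sets and 4 of 10 sensor probe sets were lower in all 3. Probe sets of a gene share their RNA and are not independent.

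The 4 roles were compared by their median log2 difference. The median was -0.47, -0.57 and -0.88 for the chaperones and -0.56, -0.50 and -0.74 for the translocon. The chaperone median minus the translocon median was 0.09, -0.06 and -0.13, and the median over all genes was 0.01, 0.00 and -0.11. The degradation genes were at -0.54, -0.26 and -1.34 and the sensors at -0.88, -0.41 and -1.24. Within IBC-II the chaperones ranged from -2.02 to 0.05 and the translocon genes from -0.87 to 0.36. In IBC-II, the 7 genes at least 2-fold lower were 6 chaperones and ERN1, where 4.34% of all genes were that much lower. The counts were 0 of 11 translocon and 0 of 10 degradation genes. At a share of 4.34%, these 0 counts do not set the translocon and degradation genes apart from other genes. No test was made of these contrasts, since the genes of a role are not replicates.

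The 9 genes with ERSE or ERSE-II had median log2 differences of -0.45, -0.74 and -0.93, and 6 of them were lower in all 3 lines. The 26 tested genes with a promoter and neither element were at -0.65, -0.50 and -0.84, and 20 were lower in all 3. Among the latter were DNAJB9, HSPA13 and MANF. The 23 other genes of the array with either element in their promoter had medians of -0.11, -0.09 and -0.22, and 8 were lower in all 3.

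Genes of neighbouring steps were taken from lists made by known function, also with earlier results of these data known. Of 12 oligosaccharyltransferase genes, which attach N-glycans at the translocon, 7 were lower in all 3 lines, among them OSTC at 978 in pLKO and 319, 563 and 217 in the shRNA lines. Of 13 genes of the signal recognition particle and of targeting to the ER, 5 were lower in all 3, with SEC11C, a signal peptidase catalytic subunit, 2.38-fold, 1.67-fold and 2.02-fold lower. Of 12 genes of the COPII coat, which carries cargo out of the ER, 4 were lower in all 3, and of 10 genes of the ER membrane complex 3 were lower and 2 higher. No gene of these 4 lists was at least 2-fold lower in all 3 lines. Since only 0.817% of all genes were, this absence does not set the lists apart from other genes. Of all genes, 21.3% were lower and 18.8% higher in all 3 lines.

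Among 18 further degradation genes, 7 were lower and 4 higher in all 3 lines, where 21.3% of all genes were lower and 18.8% higher. SELENOS, a selenoprotein that binds the derlins, was 2.94-fold, 1.66-fold and 6.61-fold lower. The lectin gene ERLEC1 was 2.38-fold, 1.91-fold and 1.89-fold lower. Among 15 further transducers and effectors of the unfolded protein response, 6 were lower and 3 higher. The 3 higher genes were CREB3L1, an ER-membrane transcription factor related to ATF6, DNAJB12, a J-domain protein of the ER membrane, and ERN2, the epithelial relative of ERN1. ERN2 was at 20.9 in pLKO and 80.1, 46.8 and 179 in the shRNA lines, or 3.84-fold, 2.24-fold and 8.58-fold higher. Its pLKO level was little above the floor, so these folds rest on a low value. ERN2 was the only gene of the list at least 2-fold higher in all 3, against 0.550% of all genes. CREB3L1 was 4.21-fold, 1.67-fold and 9.61-fold higher.

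Chaperones of other compartments were counted for comparison. Of 19 cytosolic chaperone genes 4 were lower in all 3 lines and 6 higher, and HSP90AA1, the inducible cytosolic HSP90, was 1.51-fold, 1.41-fold and 2.47-fold higher. The median of this list was -0.17, 0.18 and -0.30 in the 3 lines. Of 9 mitochondrial chaperone and protease genes 5 were lower and 1 higher, with LONP1, a matrix protease, 2.04-fold, 2.28-fold and 1.37-fold lower. The shares over all genes were 21.3% lower and 18.8% higher in all 3 lines. No cytosolic or mitochondrial gene was at least 2-fold lower in all 3 lines. Since 0.817% of all genes were, the 0 does not set these lists apart from other genes.

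**Figure D4:**
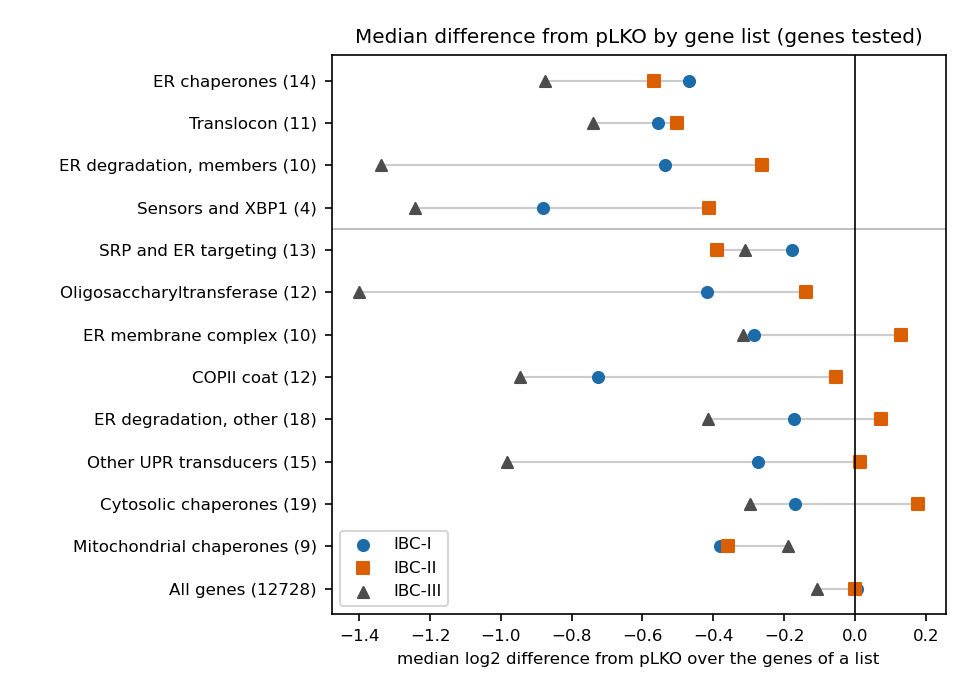
Median log2 difference from pLKO (x axis) over the genes of each list, with the number of genes tested in brackets and 1 symbol for each shRNA line. The 4 roles of the 41 genes, above the line, have all 3 medians under -0.25, whereas in IBC-II the ER membrane complex, the other degradation genes, the other transducers and the cytosolic chaperones have medians above 0.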

How the data were processed

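The authors hybridized RNA to Affymetrix U133 Plus 2.0 arrays and analyzed them with dChip. The deposited values are linear intensity values of 54675 probe sets on 4 arrays, not normalized between arrays, and which program made them is not given in the sources read here. Here intensities of 0 were set to 0.1, and the values were taken to log2, quantile normalized and floored at 16. After leaving out 62 control probe sets, those whose mean log2 reached the median (4.39) were kept, 27307 in all. Gene names come from the platform annotation, by probe sets of 1 gene (41097, of which 41043 matched the GRCh38.p14 RefSeq table; 1801 name several genes and 11777 none).

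Each shRNA array was compared with pLKO by fold, without replicates of the control. limma (3.58.1, R 4.3.3) was fitted to both groups with Benjamini-Hochberg adjustment and tested on simulated data. The simulated spread was smaller than the SDs over the lines given above, so that check does not show what limma can find here. The labels number the shRNA samples as clones and nothing states separate cultures for replication, so p-values measure the spread between these lines. The number of arrays limits the precision. Members and lists were chosen with earlier results of these data known. Values on every array are given for members at least 2-fold apart from pLKO in all 3 lines or higher in all 3, for the sensors and reference members, and for members whose probe sets disagree. From each other list, those named are among the 3 genes with the largest smallest change. Other values named, such as HERPUD1, HYOU1, SSR3 and EDEM2, were chosen after their values were seen. Alternatives were other normalizations, floors, filters, probe-set rules and limma settings, and each shRNA array left out. Protein sequences were not used here.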

Additional observations from a re-analysis of the deposited data

Results flagged for a closer look

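The 3′ to 5′ ratios of the control genes were above the pLKO array in IBC-I and IBC-III, in control probe sets that enter no comparison of the report. For ACTB the ratio was 9.67 in IBC-I and 42.6 in IBC-III, against 5.29 in pLKO. For GAPDH it was 2.18 in IBC-I and 13.1 in IBC-III, against 1.09 in pLKO. The part of RNA quality in the differences of the ER genes was not tested. In IBC-II, whose ratios of 2.58 and 1.02 were below those of pLKO, HSPA5 was 3.13-fold lower, DNAJB9 4.07-fold, HSPA13 2.52-fold and MANF 2.75-fold lower.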

How the results depend on the processing

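The count of 27 genes lower in all 3 lines was between 22 (values as deposited, 56.4% against 20.4% of all genes) and 29 (probe sets of several genes used too, chosen after seeing the data) in the alternatives that kept the choice of the brightest probe set and all arrays, and 27 with the mean of all probe sets. With the second brightest probe set, which 25 of the genes have, it was 13, with 1 gene higher in all 3, 2 at least 2-fold lower (DNAJB9 and ERN1), 1 at least 3-fold lower and a sensor median of -0.14. With the mean of all probe sets, 0 genes were higher, 2 were at least 2-fold lower (DNAJB9 and MANF) and 1 at least 3-fold lower. The median over all genes, as the mean of the 3 comparisons, was -0.38 as deposited and -0.28 with median centring. As deposited, 1 gene was higher (SEC62) and 1 at least 3-fold lower (DNAJB9), and the mean of the 3 medians was -1.20 for the chaperones, -1.21 for the translocon and -1.33 for the sensors, against -0.64, -0.60 and -0.85 in the main setting. With median centring, 1 gene was higher, 1 at least 3-fold lower, and the chaperones were at -1.06 and the translocon at -1.08. Relative to all genes these 5 shifted medians were between -0.79 and -0.94. With a floor of 64, 1 gene was higher and limma called 2 (HSPA13 and EDEM2), where most spreads are 0 because of the floor. With the upper quartile filter, 1 gene was higher.

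Leaving out each shRNA array in turn gave 28 to 31 genes lower, 2 to 4 higher, 4 to 9 at least 2-fold lower, 2 to 4 at least 3-fold lower and 0 called by limma. The count at an unadjusted limma p under 0.05 was 3, 0 without IBC-I, and 2 to 7 in the alternatives that kept all arrays. The highest of the 2-fold and 3-fold counts, 9 and 4, came without IBC-II. With 1 array left out the rule asks for fewer lines, so these fold counts could only stay or rise. The share of all genes lower was then 29.3% without IBC-I, 34.2% without IBC-II and 30.8% without IBC-III, against 21.3% with all arrays. The medians ranged from -0.72 to -0.52 (chaperones), -0.65 to -0.53 (translocon), -0.94 to -0.40 (degradation) and -1.06 to -0.65 (sensors). A mean difference changed its sign for DERL3 (-0.088) and HSP90B1 (0.037) with the mean of all probe sets, for ATF6 (0.066), DERL3 (-0.63), HSP90B1 (0.26), SEC62 (-0.19) and XBP1 (0.29) with the second brightest, and for HSP90B1 without IBC-II (-0.83 to 0.38 over the arrays left out). The cause was not tested. No paired analysis was possible because the single pLKO array carries no replicate number. Signal over background limits IBC-III most, with 55.1% of its probe sets under the floor before normalization.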
